A study of Mus musculus with 6 samples.

Results

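ADAMTS proteases are secreted zinc enzymes that cut proteoglycans and procollagens of the extracellular matrix. Their genes were followed in RNA-seq libraries of primary fibroblasts from newborn mouse skin with and without a constitutively active form of the transcription factor NRF2. The 10 genes Adamts1, Adamts2, Adamts3, Adamts4, Adamts5, Adamts7, Adamts9, Adamts10, Adamts12 and Adamts14 were taken by name out of 43629 genes in the deposited tables, and all 10 passed the filter on low counts. The caNrf2 group came from 3 mice that carried Col1a2Cre together with the caNrf2 mutant, and the ctrl group from 3 mice that carried Col1a2Cre alone (genotype Col1a2Cre-wt). Every mouse thus had the Cre recombinase under control of Col1a2, a collagen gene active in fibroblasts, on a mixed background of 50% C57Bl/6 and 50% FVB/N. The cells were grown for 6 days and sequenced at passage 1. The labels give a group and a number for each library and no further identity of the mice, so each library was taken as 1 mouse. The share of cells in which Cre had acted is not given in the sources used here.

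ADAMTS stands for a disintegrin and metalloproteinase with thrombospondin motifs. The enzymes are made as inactive precursors, most of which are activated by furin-like convertases, and they bind the matrix or the cell surface through their thrombospondin repeats and C-terminal parts. In skin, aggrecanases such as ADAMTS1, ADAMTS4, ADAMTS5 and ADAMTS9 cut versican, a large proteoglycan of the dermis that is related to aggrecan of cartilage. ADAMTS2, ADAMTS3 and ADAMTS14 remove the N-propeptide from procollagens, and loss of ADAMTS2 leaves the skin fragile in cattle, humans and mice.

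Library totals lay between 30168400 and 45164208 expected counts, so that 1 count stood for 0.0223 to 0.0331 CPM (counts scaled to a common library size). Nfe2l2, which encodes NRF2, had 352, 430 and 358 CPM in caNrf2 libraries, against 113, 103 and 112 CPM in ctrl libraries, and whether its reads came from the transgene cannot be read from these counts. The groups did not overlap. The first principal component of log2 CPM held 65% of the variance and separated the groups. On the second, replicate 1 of caNrf2 (31.2) and of ctrl (25.9) stood apart from the other 4 libraries (-19.6 to -8.89). Among 10 fibroblast markers all were detected, and Col1a1 was at 11158 to 12671 CPM in caNrf2 cultures and 14012 to 20287 CPM in ctrl cultures.

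Of the 10 ADAMTS genes, 3 fell in caNrf2 cultures and none rose. The genes that fell were Adamts1 and Adamts9, which encode aggrecanases, and Adamts10, which encodes a fibrillin-binding enzyme. A gene is said to rise or fall where its Benjamini-Hochberg adjusted p over 15341 tested genes was below 0.05 in edgeR's quasi-likelihood F test. By that rule 9.03% of all tested genes fell and 12.5% rose, 21.5% in either direction. At an unadjusted p below 0.05, 4 of the 10 genes were lower and 1, Adamts4, was higher. DESeq2 and limma-voom called 0 higher, and 1 of the 18 alternatives called Adamts4. Counting by overlap in CPM instead, the groups were fully separated and lower in caNrf2 for the same 3 genes, where 20.1% of all genes were. They were separated and higher for Adamts4 alone, where 22.0% of all genes were. In either direction, 42.1% of all genes were separated. The median log2 fold change was -0.33 over the 10 genes and -0.003 over all genes tested. In bulk RNA, fewer cells of a type and less RNA per cell cannot be told apart. The count of lower genes was 5 without ctrl replicate 3.

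**Figure D1:**
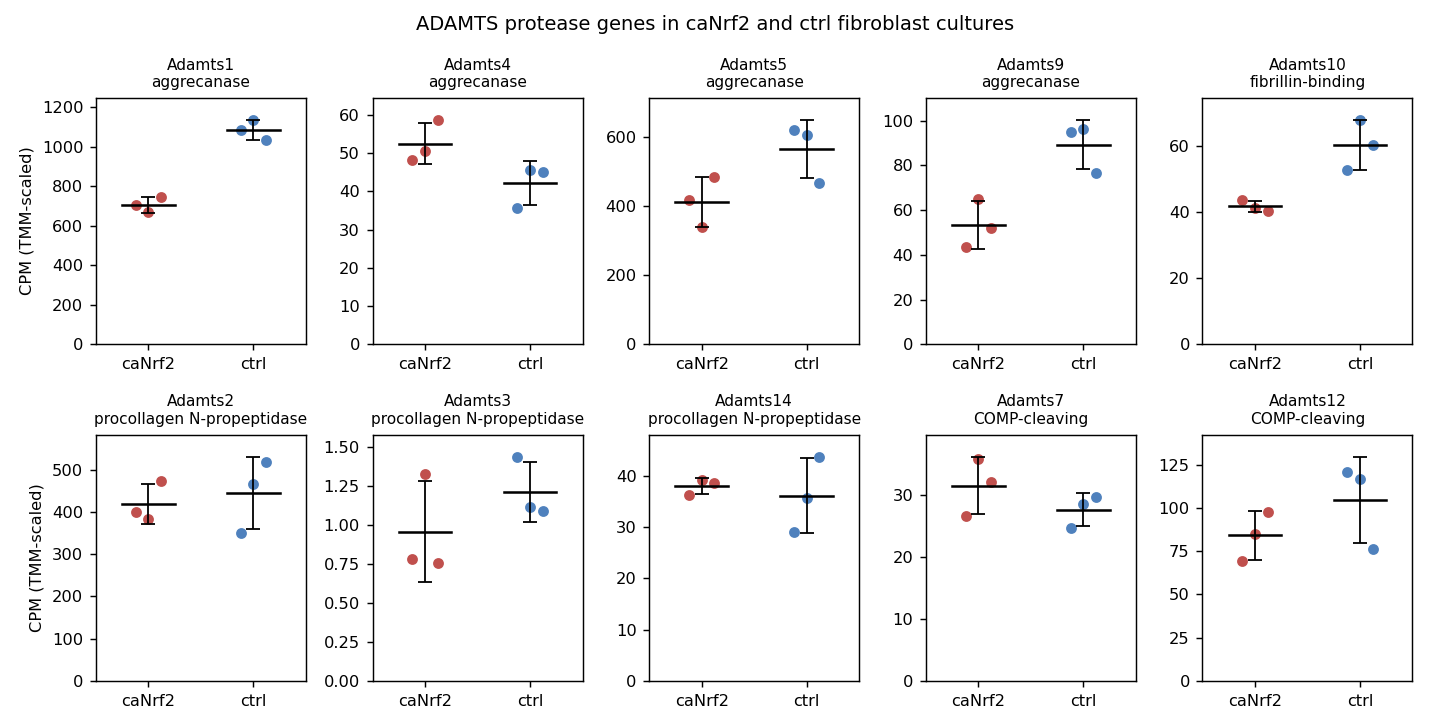
CPM of the 10 ADAMTS protease genes in each library (points), with the mean (horizontal bar) and SD (whisker) of 3 caNrf2 and 3 ctrl libraries. In CPM, Adamts1, Adamts9 and Adamts10 were lower in each caNrf2 library than in each ctrl library, and Adamts4 was higher in each.

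Levels between genes were compared per length, in TPM (transcript abundance scaled to a common total). Adamts1 was the most abundant at 300.4 ± 30.9 TPM in caNrf2 and 492 ± 30.3 TPM in ctrl (SD, n = 3 each). Adamts5 followed at 91.3 ± 16.6 TPM in caNrf2 and 129.95 ± 18.9 TPM in ctrl, and Adamts2 at 109 ± 14.7 TPM in caNrf2 and 120.4 ± 23.4 TPM in ctrl. These genes overlapped each other in ctrl libraries and did not reach the level of Adamts1. Below them came Adamts10, Adamts12, Adamts9, Adamts4, Adamts14 and Adamts7, with ctrl means between 10.6 and 33.6 TPM and caNrf2 means between 11.3 and 24.3 TPM. Each of these overlapped the next in the order of ctrl levels. Adamts3 was the lowest in both groups, with 0.223 ± 0.0839 TPM in caNrf2 and 0.297 ± 0.0462 TPM in ctrl. In caNrf2 cultures the mean of Adamts2 was above that of Adamts5, with overlapping libraries, and all libraries of Adamts4 (18.9 to 24.9 TPM) were above those of Adamts9 (10.9 to 16.1 TPM).

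Adamts1 (ENSMUSG00000022893, chr16:85793827-85803113, minus strand, GRCm38) encodes an aggrecanase first known as an inflammation-associated protein and required for normal growth of mice. It was at 703, 668 and 744 CPM in caNrf2 libraries, against 1084, 1134 and 1032 CPM in ctrl libraries. The groups were far apart relative to their spread, with 38.2 CPM of SD in caNrf2 and 50.6 CPM in ctrl. The level fell to 0.651-fold (log2 fold change -0.62, SE 0.09, edgeR adjusted p = 0.00121).

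Adamts9 (ENSMUSG00000030022, chr6:92772699-92943492, minus strand) encodes a versican-cutting protease needed for the clearing of provisional matrix during development. It was at 43.5, 64.8 and 51.8 CPM in caNrf2 libraries, against 94.8, 96.2 and 76.5 CPM in ctrl libraries. The highest caNrf2 library stayed below the lowest ctrl library. The fold change of 0.598 (log2 -0.74, SE 0.15, edgeR adjusted p = 0.00787) was the lowest of the 10 genes. The gene overlaps A730049H05Rik on the opposite strand, which was at 1.29 CPM in caNrf2 and 0.844 CPM in ctrl, and since no strand setting is stated, reads of the shared stretch cannot be told apart. Both Adamts1 and Adamts9 kept their calls in all 18 alternatives, with log2 fold changes of -0.71 to -0.59 for Adamts1 and -0.91 to -0.57 for Adamts9.

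Adamts5 (ENSMUSG00000022894, chr16:85858170-85901125, minus strand) encodes the main aggrecanase of mouse cartilage. It was at 417, 339 and 484 CPM in caNrf2 libraries, against 620, 607 and 469 CPM in ctrl libraries. Ctrl replicate 3 lay within the range of the caNrf2 libraries, so the groups overlapped. The log2 fold change was -0.45 (SE 0.15, 95% interval -0.80 to -0.11), and the gene missed the threshold (edgeR adjusted p = 0.0652). It passed without ctrl replicate 3 (log2 -0.57, adjusted p = 0.0378) or caNrf2 replicate 3 (-0.59, 0.0406), with DESeq2 (-0.45, 0.0118), without a filter (-0.45, 0.0237) and with upper-quartile factors (-0.49, 0.0488), and its adjusted p spanned 0.0118 to 0.219 across the 18 alternatives.

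Adamts4 (ENSMUSG00000006403, chr1:171250421-171260637, plus strand), the other classical aggrecanase gene, was at 48.4, 50.6 and 58.6 CPM in caNrf2 libraries, against 35.6, 45.7 and 45.2 CPM in ctrl libraries. It was the only one of the 10 genes with every caNrf2 library above every ctrl library in CPM. In TPM its groups overlapped, at 18.9 to 24.9 TPM in caNrf2 and 15.4 to 19.8 TPM in ctrl. The difference (log2 fold change 0.32, SE 0.12, 95% interval 0.05 to 0.58) missed the threshold (edgeR adjusted p = 0.0837). It passed in 1 of the 18 alternatives, the edgeR fit with the replicate number as a block (log2 0.32, SE 0.08, adjusted p = 0.0378). Over the 18 the adjusted p spanned 0.0378 to 0.269.

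Sequence upstream of the start site was at hand for 6 of the 10 genes in RefSeq (GRCm38.p6), namely Adamts1, Adamts9, Adamts2, Adamts3, Adamts14 and Adamts12. In windows of 250 bases before to 50 bases after the start site, searched on both strands, the core of the antioxidant response element that NRF2 binds, TGACNNNGC, was in 1 of the 6 windows, against 12.4% of 32851 windows of all genes. The AP-1 motif TGANTCA was in none of the 6 windows, against 7.81% of all. The 250 upstream bases are shown for both aggrecanase genes that fell and for Adamts2, whose window held the match, with the match in capitals. The sequences run 5′ to 3′ on the strand of the gene, from chr16:85803114-85803363 (minus), chr6:92943535-92943784 (minus) and chr11:50601835-50602084 (plus).
Adamts1: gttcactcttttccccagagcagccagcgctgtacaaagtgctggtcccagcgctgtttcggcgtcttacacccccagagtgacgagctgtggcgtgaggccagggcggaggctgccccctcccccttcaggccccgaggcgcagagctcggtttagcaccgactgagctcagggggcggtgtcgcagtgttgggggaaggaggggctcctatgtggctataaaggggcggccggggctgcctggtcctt
Adamts9: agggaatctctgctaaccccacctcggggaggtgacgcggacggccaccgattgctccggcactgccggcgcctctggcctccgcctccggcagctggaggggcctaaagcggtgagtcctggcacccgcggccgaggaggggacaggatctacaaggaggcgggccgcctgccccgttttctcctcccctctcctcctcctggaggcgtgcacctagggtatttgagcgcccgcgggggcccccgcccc
Adamts2: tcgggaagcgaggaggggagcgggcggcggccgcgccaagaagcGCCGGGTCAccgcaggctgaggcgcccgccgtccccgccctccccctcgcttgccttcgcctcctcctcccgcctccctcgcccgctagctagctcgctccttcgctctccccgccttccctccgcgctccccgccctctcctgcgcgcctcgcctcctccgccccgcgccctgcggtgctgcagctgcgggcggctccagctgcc
The match in Adamts2 lies on the reverse strand, its first base 206 bases before the start site. The Adamts1 window has a GC content of 64.7% and 18 CG pairs, the Adamts9 window 70.0% and 25, and the Adamts2 window 77.3% and 41, where the median of all windows is 52.7% and 7.

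Adamts1 and Adamts5 are neighbours on chromosome 16, on the same strand, 55.1 kb apart and with no protein-coding gene between them. The nearest protein-coding genes outside the pair were compared after their values were seen. Cyyr1, 240.4 kb away on the side of Adamts1, was at 0.137 CPM in caNrf2 and 0.163 CPM in ctrl and was not tested. App, further on that side, had a log2 fold change of -0.18 (edgeR adjusted p = 0.196). N6amt1, 1453.1 kb away on the side of Adamts5, had one of -0.22 (adjusted p = 0.116).

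Adamts10 (ENSMUSG00000024299, chr17:33524204-33553782, plus strand) encodes an enzyme that binds fibrillin microfibrils and is mutated in human Weill-Marchesani syndrome. It was at 43.6, 41.4 and 40.3 CPM in caNrf2 libraries, against 52.9, 67.8 and 60.3 CPM in ctrl libraries. The caNrf2 libraries lay close together and below all ctrl libraries. The level fell to 0.692-fold (log2 fold change -0.53, SE 0.10, edgeR adjusted p = 0.00527), and the call held in all 18 alternatives (log2 -0.65 to -0.44).

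None of the 3 procollagen N-propeptidase genes passed the threshold in either direction in edgeR, and none had an unadjusted p below 0.05 (0 of 3). Adamts2 (ENSMUSG00000036545, chr11:50602084-50807573, plus strand) encodes the principal N-propeptidase of procollagens I and III in skin. It was at 399, 384 and 474 CPM in caNrf2 libraries, against 351, 465 and 518 CPM in ctrl libraries. The groups overlapped widely, with the lowest value in ctrl replicate 1 and the highest in ctrl replicate 3. Its log2 fold change was -0.09 (SE 0.15, edgeR adjusted p = 0.711), and the 95% interval of -0.42 to 0.25 leaves room for a change of either sign.

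Adamts14 (ENSMUSG00000059901, chr10:61197112-61273438, minus strand), which encodes an enzyme of the same specificity, was at 36.3, 39.2 and 38.6 CPM in caNrf2 libraries, against 29.1, 35.6 and 43.7 CPM in ctrl libraries. All caNrf2 libraries fell inside the range of ctrl (log2 fold change 0.07, SE 0.13, 95% interval -0.23 to 0.38, edgeR adjusted p = 0.725). Adamts3 (ENSMUSG00000043635, chr5:89673841-89883334, minus strand) encodes an N-propeptidase that also matures the lymphatic growth factor VEGF-C together with CCBE1. It was at 0.785, 1.33 and 0.760 CPM in caNrf2 libraries, against 1.44, 1.12 and 1.09 CPM in ctrl libraries. The groups overlapped, and the gene was not called (log2 -0.33, SE 0.28, 95% interval -0.98 to 0.31, adjusted p = 0.436). Of 4 tested genes of the VEGF-C pathway edgeR, DESeq2 and limma-voom called 0, while 2 were higher and 1 lower at an unadjusted p below 0.05. Vegfc had a log2 fold change of -0.06 and Ccbe1 one of -0.55 (SE 0.20, edgeR adjusted p = 0.0859). Flt4 had one of 0.58 and Vegfd one of 0.21. All 4 were named after their values were seen.

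Adamts7 and Adamts12 encode a pair of related enzymes that cut cartilage oligomeric matrix protein (COMP). Adamts7 (ENSMUSG00000032363, chr9:90163069-90208071, plus strand) was at 26.6, 35.7 and 32.0 CPM in caNrf2 libraries, against 24.6, 28.4 and 29.6 CPM in ctrl libraries. Adamts12 (ENSMUSG00000047497, chr15:11064790-11346867, plus strand) was at 69.5, 85.2 and 97.8 CPM in caNrf2 libraries, against 121, 117 and 76.2 CPM in ctrl libraries. Both overlapped between the groups, Adamts12 because of ctrl replicate 3. The log2 fold change was 0.19 for Adamts7 (SE 0.12, edgeR adjusted p = 0.294) and -0.32 for Adamts12 (SE 0.18, adjusted p = 0.250). Without ctrl replicate 3 Adamts12 passed the threshold (log2 -0.50, adjusted p = 0.0451, over its alternatives 0.0451 to 0.793). Adamts7 overlaps Tbc1d2b on the opposite strand over 6045 bases, which stood at 296 CPM in caNrf2 and 253 CPM in ctrl. Comp itself, the shared substrate, was at 0.138 to 0.379 CPM in caNrf2 and 0.0846 to 0.380 CPM in ctrl.

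**Figure D2:**
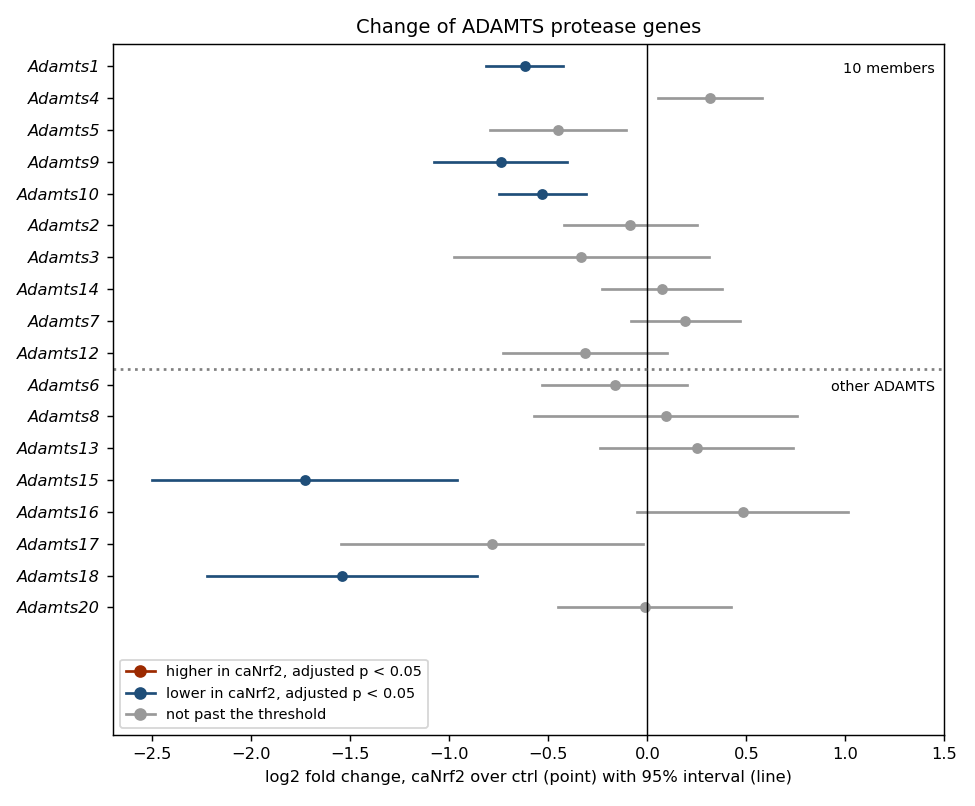
Log2 fold change, caNrf2 over ctrl, of each tested ADAMTS gene (point) with its 95% interval (line), the 10 members above the dotted line and 8 further family genes below it. Adamts1, Adamts9 and Adamts10 among the members and Adamts15 and Adamts18 among the others were past the threshold, all of them lower.

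Summed by role, aggrecanase transcripts (Adamts1, Adamts4, Adamts5 and Adamts9) reached 384, 422 and 475 TPM in caNrf2 libraries, against 648, 710 and 629 TPM in ctrl libraries. The groups did not overlap. Most of this sum was Adamts1, on average 300 of 427 TPM in caNrf2 and 492 of 662 TPM in ctrl. Adamts4 had the higher mean in caNrf2 (21.8 TPM, against 18.3 TPM in ctrl). N-propeptidase transcripts (Adamts2, Adamts3 and Adamts14) summed to 110, 118 and 140 TPM in caNrf2 libraries, against 106, 139 and 157 TPM in ctrl libraries, and did overlap. The ratio of the aggrecanase sum to the N-propeptidase sum was 3.50, 3.57 and 3.41 in caNrf2 libraries, against 6.13, 5.10 and 4.02 in ctrl libraries. Every caNrf2 library had the lower ratio. Its SD was 0.0841 in caNrf2 and 1.06 in ctrl. Adamts1 made up 48.3% to 50.8% of the TPM of the 10 genes in caNrf2 libraries and 56.4% to 56.5% in ctrl libraries, and Adamts2 17.2% to 18.5% in caNrf2 and 11.4% to 16.5% in ctrl. These sums and shares describe the libraries and were not tested, because the genes were chosen with earlier results known.

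**Figure D3:**
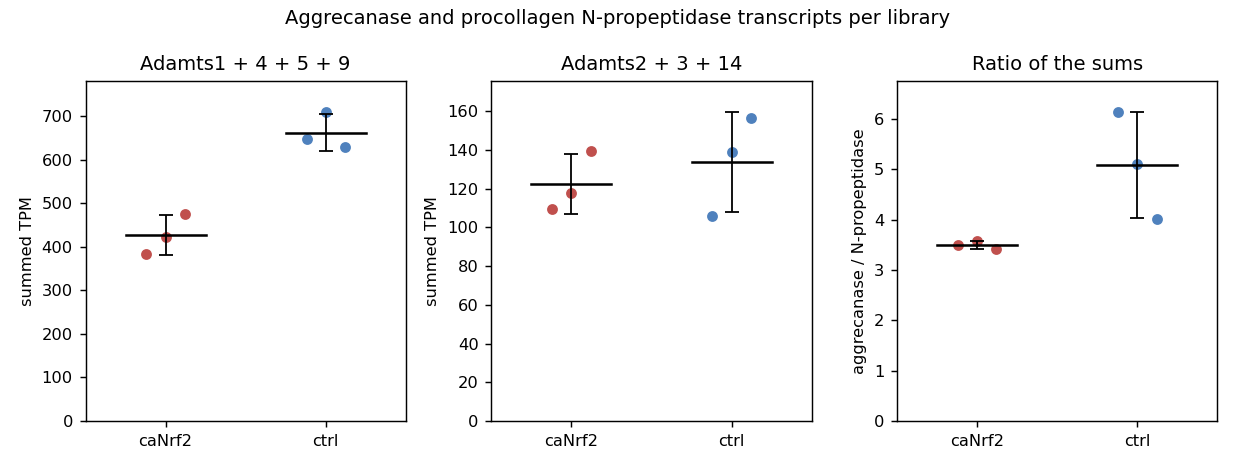
Summed TPM of the aggrecanase genes (left) and of the N-propeptidase genes (middle) and the ratio of the sums (right) in each library (points), with mean (bar) and SD (whisker) of 3 caNrf2 and 3 ctrl libraries. The aggrecanase sums were 384 to 475 TPM in caNrf2 and 629 to 710 TPM in ctrl, while the N-propeptidase sums overlapped.

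The transcripts of the genes were compared without a test. Adamts1 has 3 transcripts in the tables. The leading coding transcript ENSMUST00000023610 held 70.2% to 85.6% of the gene's TPM in caNrf2 and 70.5% to 81.3% in ctrl. A transcript with a retained intron, ENSMUST00000138474, was at 6.13, 8.70 and 8.49 TPM in caNrf2 libraries, against 18.0, 24.9 and 24.97 TPM in ctrl libraries. Its share of the gene was 2.30% to 2.84% in caNrf2 and 3.86% to 5.17% in ctrl. It was thus lower in caNrf2 relative to the whole gene in each library. In Adamts9 the retained-intron transcript ENSMUST00000125490 went the other way, at 5.73% to 12.5% in caNrf2 and 3.20% to 3.69% in ctrl. Another of that gene, ENSMUST00000130314, overlapped (3.48% to 6.57% in caNrf2, 4.07% to 4.88% in ctrl). The lesser coding transcript of Adamts4, ENSMUST00000111314, held 3.08% to 5.57% in caNrf2 and 6.15% to 11.1% in ctrl. For Adamts2, the coding transcript ENSMUST00000040523 held 92.7% to 93.9% in caNrf2 and 92.9% to 93.5% in ctrl.

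Adamts10 was spread over 12 transcripts. Its coding transcript ENSMUST00000087623 held 19.9% to 35.8% of the gene's TPM in caNrf2 and 23.9% to 29.5% in ctrl, the rest going to transcripts annotated as retained introns, targets of nonsense-mediated decay or processed transcripts. At 7.55, 6.79 and 4.70 TPM in caNrf2 libraries, against 7.22, 10.9 and 9.06 TPM in ctrl libraries, the coding transcript overlapped between the groups, while the whole gene did not. The lead transcript of Adamts9, ENSMUST00000113438, was at 6.48, 13.7 and 10.4 TPM in caNrf2 libraries, against 20.2, 19.3 and 16.3 TPM in ctrl libraries, without overlap. Adamts5 and Adamts12 have a single transcript each in the tables. Transcript values rest on reads that the authors' software divided among overlapping transcripts and are less certain than those of whole genes.

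**Figure D4:**
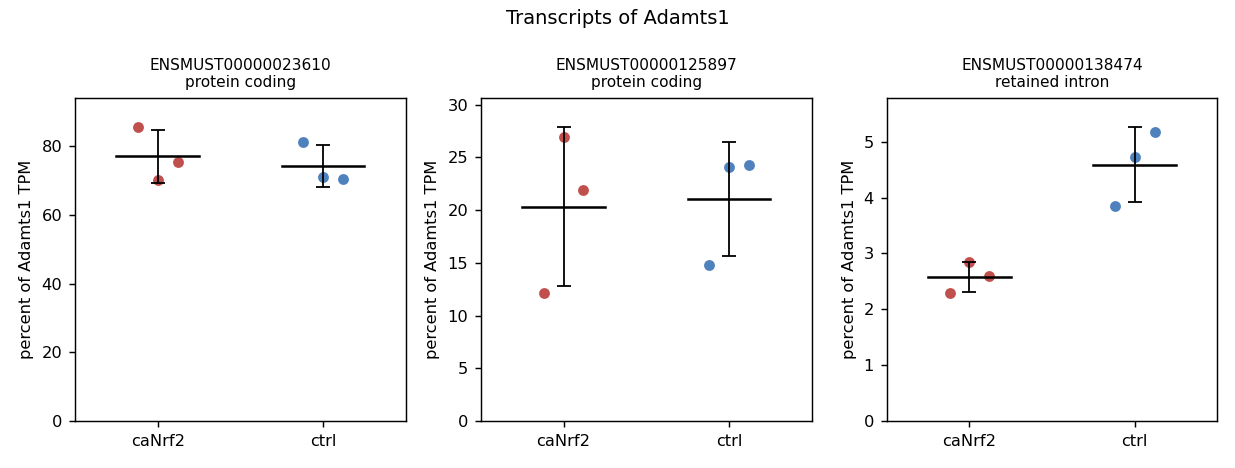
Share of the TPM of Adamts1 assigned to each of its 3 transcripts in each library (points), with mean (bar) and SD (whisker) of 3 caNrf2 and 3 ctrl libraries, each panel with its own percent axis from 0. The transcript with a retained intron took 2.30% to 2.84% in caNrf2 and 3.86% to 5.17% in ctrl, and the shares of both coding transcripts overlapped.

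Among the other 9 ADAMTS genes, 8 were tested, 2 fell and none rose (0 at an unadjusted p below 0.05 in edgeR, and 0 by DESeq2 or limma-voom). For this and the list counts below, the shares over all tested genes were 9.03% lower and 12.5% higher. Adamts15, which encodes another versican- and aggrecan-cutting enzyme, was at 5.52, 2.82 and 5.85 CPM in caNrf2 libraries, against 14.7, 9.85 and 22.7 CPM in ctrl libraries. The groups did not overlap, and the level fell to 0.301-fold (log2 -1.73, SE 0.34, edgeR adjusted p = 0.00732). Adamts18 was expressed at a low level, at 0.271, 0.248 and 0.299 CPM in caNrf2 libraries, against 0.930, 0.603 and 0.892 CPM in ctrl libraries. It fell to 0.343-fold (log2 -1.54, SE 0.30, adjusted p = 0.00710) and was not called without replicate 1 of both groups (log2 -1.42, adjusted p = 0.050), an alternative chosen after the data were seen. Adamts15 lies 20.1 kb from Adamts8 on chromosome 9, and Adamts8 was not called (log2 fold change 0.09, adjusted p = 0.850). Adamts19 was below the filter, at 0.0461 to 0.217 CPM in caNrf2 and 0.113 to 0.223 CPM in ctrl.

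ADAMTS-like proteins share the thrombospondin repeats of the family without the protease domain, and several bind microfibrils. Of 7 genes tested, 4 fell and none rose in edgeR, DESeq2 or limma-voom, with 1 higher at an unadjusted p below 0.05 (median log2 fold change -0.45). Thsd4, which encodes ADAMTSL6, was at 4.14, 6.70 and 7.07 CPM in caNrf2 libraries, against 13.1, 10.7 and 11.4 CPM in ctrl libraries (log2 -0.97, SE 0.19, edgeR adjusted p = 0.00775). Adamtsl5 was the most abundant, at 69.6, 56.3 and 61.9 CPM in caNrf2 libraries, against 80.2, 83.4 and 97.1 CPM in ctrl libraries (log2 -0.47, adjusted p = 0.0122). Both were separated between the groups. Adamtsl4 also fell (log2 -0.43, adjusted p = 0.0222) and lost its call without caNrf2 replicate 2, caNrf2 replicate 3, ctrl replicate 2 or replicate 1 of both groups and with limma on log2(TPM + 1) (log2 -0.44 to -0.34, adjusted p up to 0.0697). The fourth, Adamtsl3, was named after its values were seen (log2 -0.92, adjusted p = 0.036). The count was 2 without caNrf2 replicate 3, without ctrl replicate 2 or without replicate 1 of both groups. It was also 2 with limma on log2(TPM + 1). Papln, which encodes papilin, was at 0.519 to 0.595 CPM in caNrf2 and 0.479 to 0.628 CPM in ctrl.

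Of the proteoglycans and other proteins cut by aggrecanases, or held together with them in the matrix, 7 of 10 genes were tested, 3 fell and none rose (0 at an unadjusted p below 0.05 in edgeR, and 0 by DESeq2 or limma-voom). Vcan, which encodes versican, was at 1057, 1399 and 1576 CPM in caNrf2 libraries, against 1685, 2107 and 2166 CPM in ctrl libraries. It fell to 0.677-fold (log2 -0.56, SE 0.16, edgeR adjusted p = 0.0335) and was not called without caNrf2 replicate 1 (log2 -0.42), caNrf2 replicate 2 (-0.60), ctrl replicate 2 (-0.52) or ctrl replicate 3 (-0.50). Fmod, which encodes fibromodulin, fell to 0.367-fold, at 43.1 ± 3.70 CPM in caNrf2 and 118 ± 11.2 CPM in ctrl (SD, n = 3 each), and Bgn, which encodes biglycan, to 0.658-fold, at 3711 ± 438 CPM in caNrf2 and 5643 ± 449.9 CPM in ctrl. Acan, which encodes aggrecan, was at 1.43, 3.00 and 2.23 CPM in caNrf2 libraries, against 6.88, 1.36 and 0.595 CPM in ctrl libraries. Its level was low, and ctrl replicate 1 alone was high. The log2 fold change was -0.40 (SE 0.71), and 1.13 without ctrl replicate 1, with no call either way.

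Among substrates of the N-propeptidases, 4 of 5 tested procollagen genes fell and none rose (0 at an unadjusted p below 0.05 in edgeR, and 0 by DESeq2 or limma-voom, median log2 fold change -0.65). Col1a2 was at 8797, 7391 and 8878 CPM in caNrf2 libraries, against 10726, 14034 and 15870 CPM in ctrl libraries (0.617-fold, edgeR adjusted p = 0.00993). Col5a1 (0.639-fold, adjusted p = 0.00277), Col3a1 (0.505-fold, adjusted p = 0.0184) and Col1a1 (0.680-fold, adjusted p = 0.0192) fell as well, and in each of them the groups were separated. Col1a1 lost its call when caNrf2 replicate 1, 2 or 3 or ctrl replicate 2 or 3 was left out (log2 -0.61 to -0.44), and Col3a1 without replicate 1 of both groups (-1.19, adjusted p = 0.0503). Adamts2 (0.941-fold) and Adamts14 (1.05-fold) were thus not called in cultures in which their main substrate genes were lower, but the difference between enzyme and substrate genes was not tested.

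Both tested genes of procollagen C-proteinases rose. Bmp1, which encodes the main procollagen C-proteinase, was at 433, 421 and 504.5 CPM in caNrf2 libraries, against 261, 321 and 323 CPM in ctrl libraries, without overlap. It rose 1.5-fold (log2 0.59, SE 0.11, edgeR adjusted p = 0.00722). Its relative Tll1 rose 1.87-fold, at 39.9 ± 9.40 CPM in caNrf2 and 21.2 ± 5.45 CPM in ctrl (adjusted p = 0.0151), and lost its call without ctrl replicate 1 (log2 0.90) and with limma on log2(TPM + 1) (0.78). Fn1, which encodes fibronectin, fell to 0.573-fold (log2 -0.80, adjusted p = 0.0163), a call lost without ctrl replicate 2 (-0.74) or ctrl replicate 3 (-0.74), and the other 4 of 7 tested genes of procollagen processing were not called. Pcolce, which encodes an enhancer of the C-proteinases, was at 594 ± 39.4 CPM in caNrf2 and 588 ± 81.4 CPM in ctrl.

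Inhibitors and clearance receptors changed in both directions, with 2 of 6 tested genes higher and 2 lower, beside 12.5% and 9.03% of all tested genes. Timp3, which encodes the tissue inhibitor of metalloproteinases that blocks ADAMTS4 and ADAMTS5, was at 248, 270 and 304 CPM in caNrf2 libraries, against 568, 688 and 525 CPM in ctrl libraries. Each caNrf2 library was far below each ctrl library, and the level fell to 0.461-fold (log2 -1.12, SE 0.12, edgeR adjusted p = 0.000377). Timp1 rose 1.85-fold, at 216 ± 7.77 CPM in caNrf2 and 117 ± 17.5 CPM in ctrl (adjusted p = 0.000689). Lrp2, which encodes the endocytic receptor megalin, rose 4.71-fold, at 46.7 ± 11.7 CPM in caNrf2 and 9.86 ± 1.99 CPM in ctrl (adjusted p = 0.000111). Lrp1, the receptor that clears aggrecanases from the matrix, was at 1698, 2485 and 2528 CPM in caNrf2 libraries, against 2159, 2608 and 2736 CPM in ctrl libraries, and was not called (log2 -0.16, adjusted p = 0.511). Reck, which encodes a membrane-bound protease inhibitor, fell to 0.810-fold (adjusted p = 0.0220), a call lost without caNrf2 replicate 2, ctrl replicate 1, ctrl replicate 2 or replicate 1 of both groups (log2 -0.30 to -0.26).

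Activating convertases and cell-surface anchors were divided too, 2 of 8 tested genes higher and 2 lower, beside 12.5% and 9.03% of all tested genes. Furin, which encodes the convertase that activates several ADAMTS precursors, was at 172, 201 and 185 CPM in caNrf2 libraries, against 129, 160 and 135 CPM in ctrl libraries (1.31-fold, edgeR adjusted p = 0.0285). It lost its call without caNrf2 replicate 2 (log2 0.33), caNrf2 replicate 3 (0.39), ctrl replicate 1 (0.32) or ctrl replicate 3 (0.36) and with limma on log2(TPM + 1) (0.34), and the count of higher genes was then 1. Pcsk6, which encodes another convertase, fell to 0.324-fold, at 21.8 ± 1.56 CPM in caNrf2 and 67.4 ± 16.1 CPM in ctrl (adjusted p = 0.000153). Of the heparan sulfate proteoglycans of the cell surface, Sdc4 rose 2.06-fold (125 ± 6.77 CPM in caNrf2, 60.6 ± 6.92 CPM in ctrl, adjusted p = 0.000122), and Sdc2 fell to 0.639-fold (adjusted p = 0.00292).

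ADAMTS10 and several ADAMTS-like proteins bind microfibrils, and the list of microfibril genes included those of both fibrillins. Fbn1 was at 1483, 1794 and 2127 CPM in caNrf2 libraries, against 2661, 3159 and 3178 CPM in ctrl libraries (0.601-fold, edgeR adjusted p = 0.00610), and Fbn2 was at 584, 557 and 685 CPM in caNrf2 libraries, against 1432, 1356 and 1510 CPM in ctrl libraries (0.425-fold, adjusted p = 6.37e-05). Adamts10 and both fibrillin genes were thus separated between the groups in the same direction. Of 6 microfibril genes tested, these 2 fell and 1 rose, Ltbp3 (1.31-fold, adjusted p = 0.0214), which lost its call without caNrf2 replicate 2 (log2 0.34) or ctrl replicate 1 (0.29) and with limma on log2(TPM + 1) (0.33). Pofut2 and B3glct, which add sugars to the thrombospondin repeats of ADAMTS proteins, were not called by edgeR, with log2 fold changes of -0.04 and -0.27. DESeq2 called 1 of the pair and limma-voom 0, and 1 was lower at an unadjusted p below 0.05. Both were named after their values were seen.

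**Figure D5:**
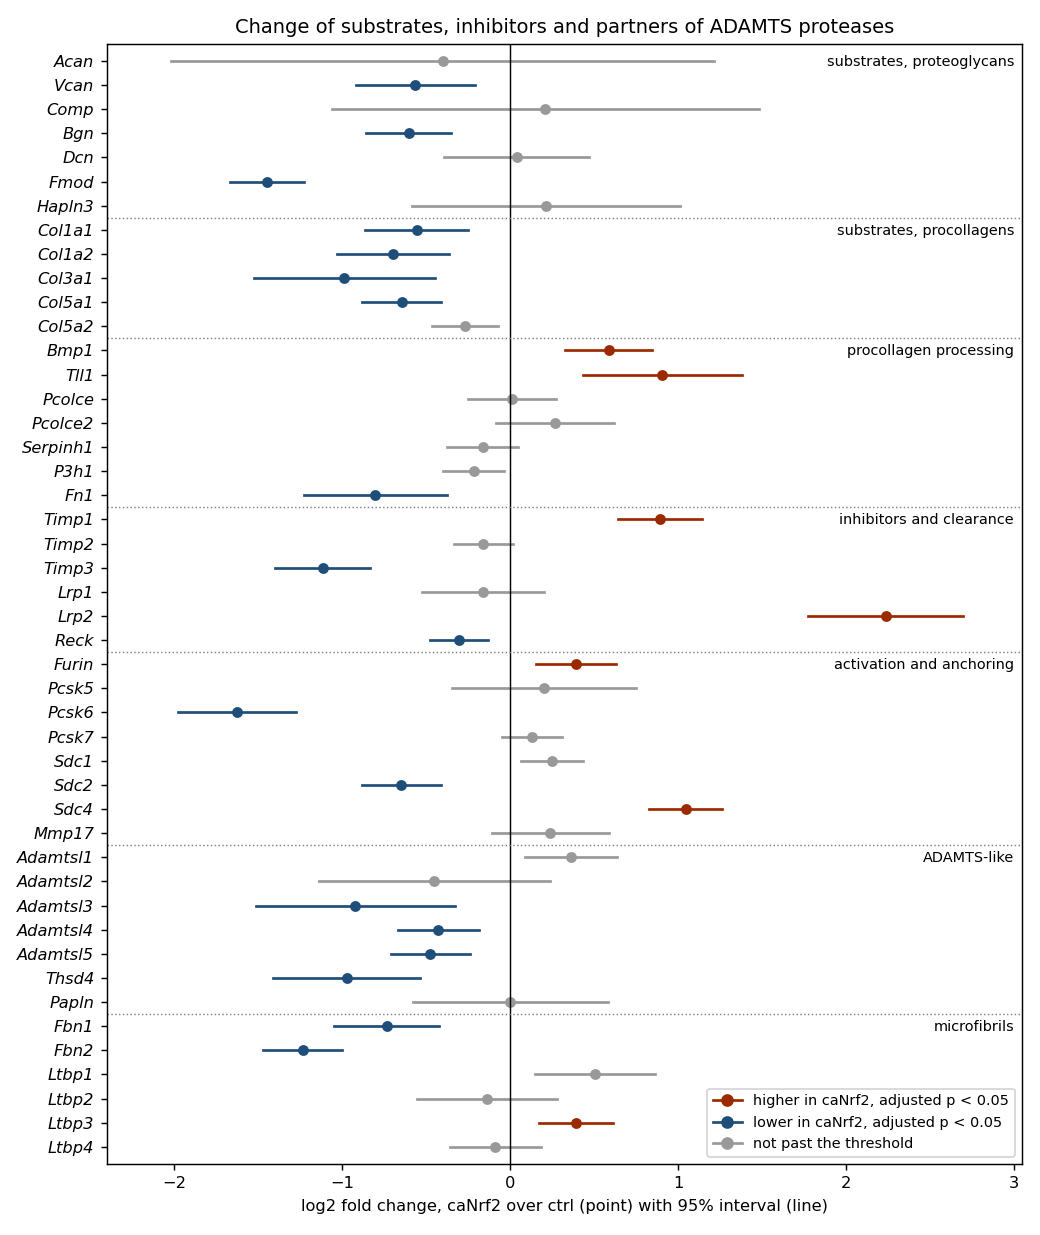
Log2 fold change, caNrf2 over ctrl (point), with its 95% interval (line), of substrates, processing enzymes, inhibitors, activators and relatives of ADAMTS proteases, grouped by dotted lines. Procollagen genes lay to the left of 0, Bmp1 and Tll1 to the right, and Timp3 and Timp1 on opposite sides.

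Markers of other cells were detected in the cultures, and some differed between the groups. All 12 macrophage and leukocyte markers were higher in caNrf2, with a summed level of 148 to 179 CPM in caNrf2 libraries and 20.5 to 59.3 CPM in ctrl libraries, and Ptprc, which defines leukocytes, averaged 2.67 CPM in caNrf2 and 0.594 CPM in ctrl. Of 9 tested skeletal muscle markers 7 were higher, summing to 196 to 237 CPM in caNrf2 and 121 to 137 CPM in ctrl. Fibroblast markers went both ways, 2 higher and 3 lower of 10. Endothelial markers (1 of 7 tested higher, none lower) summed to 11.4 to 13.6 CPM in caNrf2 and 9.28 to 12.6 CPM in ctrl, and keratinocyte markers (1 of 7 tested higher, none lower) to 209 to 332 CPM in caNrf2 and 141 to 230 CPM in ctrl. Of 5 tested Schwann cell markers 2 were higher and none lower, summing to 19.5 to 22.3 CPM in caNrf2 and 13.0 to 16.6 CPM in ctrl. Mural markers (1 of 6 lower) and adipocyte markers (1 of 5 lower) had few calls, and 6 melanocyte and 3 chondrocyte markers tested had 0. No marker on these lists was at 0 in all libraries. The part of these cells in the differences of the ADAMTS genes was not tested.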

How the data were processed

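RNA-seq of 6 fibroblast cultures (3 caNrf2, 3 ctrl) was analysed from the deposited tables, which list 104129 transcripts of 43629 genes per library. Per the submitters' processing notes, the tools were CASAVA 1.8 and RSEM 1.2.21, with the build GRCm38. Per the file headers, the authors deposited expected counts per transcript and TPM per transcript. Not given in the sources used here are the aligner, the strand setting and the release of the annotation. RSEM divides reads shared by transcripts or similar genes, so its counts need not be whole.

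Expected counts were summed per gene and rounded to whole numbers. Symbols came from a table that named 42462 of the IDs, and transcript types from GENCODE M21. Groups were compared with edgeR 4.0.16 in R 4.3.3 by the two-sided quasi-likelihood F test, with filterByExpr (minimum count 10, minimum total 15), TMM factors, no replicate block and Benjamini-Hochberg adjustment over 15341 genes at a threshold of 0.05. CPM values use TMM-scaled library sizes. SEs and 95% intervals were derived from the F statistic. TPM was summed per gene for levels between genes. The test was tested on simulated data. Within each group, libraries differed by more than counting noise.

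The members and gene lists were chosen with earlier results of these data known. Named genes are the 10 members, up to 3 rising and 3 falling genes of smallest adjusted p per further list, and 13 genes chosen by name. Marker genes are given mainly as lists. Of the listed genes 157 of 158 were found. Alternatives were DESeq2 1.42.0, limma 3.58.1 (voom, and log2 of TPM with a pseudocount of 1), other scalings and filters, unrounded and posterior mean counts, the replicate block, and libraries left out. Protein sequences were not analysed here.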

Additional observations from a re-analysis of the deposited data

How the results depend on the processing

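Over 18 alternatives, 169 of 179 values of the 10 ADAMTS genes kept their direction and side of the threshold, 7 passed it anew and 3 changed sign, all 3 of genes that were not called. The count of lower ADAMTS genes was 3 to 5 with a library left out, and the count of higher ones was 1 with the replicate block, where Adamts4 was called (log2 0.32, adjusted p = 0.0378). Same-numbered libraries deviated from their group means together at r = 0.214, 0.209 and 0.0953 across genes. Between differently numbered libraries of the groups, r was -0.242 to 0.112. Each ctrl library correlated best with the caNrf2 library of its number, while caNrf2 replicate 3 correlated better with ctrl replicate 2 (0.112). The labels state no pairs, so the numbers were not taken as pairs in the main fit. The cause of these correlations was not tested. Over all genes, 1385 were lower and 1917 higher, with 823 to 1143 lower and 1342 to 1755 higher when a library was left out and 1094 higher with log2(TPM + 1). The lower call of Adamts15 remained in all 18 alternatives. List counts moved by at most 2 genes. ADAMTS-like genes had 2 to 4 lower and 0 to 1 higher, aggrecanase substrates 2 to 3 lower, other ADAMTS genes 1 to 2 lower, procollagen processing 0 to 2 lower and 1 to 2 higher, inhibitors and receptors 1 to 3 lower and 2 to 3 higher, activators and anchors 1 to 3 higher, microfibril genes 0 to 2 higher, and the VEGF-C and glycosylation lists 0 to 1 lower.

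Values of uncalled genes that changed sign are these log2 fold changes. With a library left out, Adamts2 ranged from -0.24 to 0.0342, Adamts14 from -0.0711 to 0.23, Acan from -0.87 to 1.13, Comp from -0.18 to 0.93, Lrp1 from -0.27 to 0.0028, Papln from -0.11 to 0.0767 and Pcolce from -0.10 to 0.10. Without replicate 1 of both groups they were -0.0293 for Adamts14, 1.36 for Acan, -0.47 for Comp, -0.14 for Papln and -0.14 for Pcolce. Acan was at 0.24 with limma-voom and 0.16 with the replicate block. Papln was at -0.034 with upper-quartile factors, -0.0128 with library totals, -0.0008 without a filter and -0.004 unrounded. Pcolce was at -0.0226 with upper-quartile factors, -0.0016 with library totals and -0.0475 with log2(TPM + 1). Adamts3, Adamts18, Comp and Papln averaged at most 1.21 CPM in either group, where 1 count stood for 0.0223 to 0.0331 CPM.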
